A study of Arabidopsis thaliana with 44 samples.

Results

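The segment of chromosome 3 described here comprised 793 of the 27827 measured Arabidopsis thaliana loci, those numbered from AT3G27840 to AT3G47550, in which near isogenic line (NIL) DOG6 differed from the other lines. The segment was chosen from the measured differences between the lines, so the differences of NIL DOG6 inside it are given as a description, without a test. Of the measured loci in this interval 7 were left out by the rule that set the members (AT3G44300, AT3G44310, AT3G44320, AT3G44460, AT3G46230, AT3G46640 and AT3G47470). The study measured RNA of dry, freshly harvested seed on 44 arrays from 3 lines, NIL DOG1, NIL DOG3 and NIL DOG6, named for the DELAY OF GERMINATION loci of seed dormancy. The mother plants grew in 5 conditions, at 15C, at 20C, with low nitrate (N0), under low light (LL) and under standard light (SL), with 20C as the control of 15C and N0 and SL as the control of LL. This made 15 groups of 3 arrays, with 2 in the group of NIL DOG3 under N0. Every array measured a bulk of plants as a biological replicate. The labels used here name neither the recurrent parent nor the donor of the introgressed segments, and each locus is represented by 1 line.

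A near isogenic line carries a piece of chromosome from a donor plant in the genome of another, so that neighbouring genes of the introgressed piece share donor alleles. Local sequence differences between the alleles can change the level of a transcript, and they can also change how well a probe designed on a single reference sequence hybridizes. NIL DOG6 carries the locus DOG6, a region that affects how long seed stays dormant. NAC060, a transcription factor gene known from abscisic acid and sugar responses, lies in the segment and has been reported as a gene behind DOG6. In these arrays the allele of a locus and the sequence under its probes cannot be told apart, and in bulk seed fewer cells of a type and less RNA per cell cannot be told apart.

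Mature seed markers were high on every array, with a mean level of 11.40 to 11.99 over 11 genes on the deposited log2 scale. The mean of 5 green tissue markers was 3.46 to 4.22. Among 9 pollen markers, none of them in the segment, the mean level was 5.14 to 7.56 on SL arrays and 4.38 to 5.29 on LL arrays. The SL arrays numbered 2 were the highest, with 7.56 in NIL DOG1, 7.47 in NIL DOG3 and 6.94 in NIL DOG6. Next came the NIL DOG6 SL array numbered 1 with 6.74 and the NIL DOG3 N0 array numbered 2 with 6.615. The count and named values for LL against SL are given with and without the SL arrays numbered 2. Fits without them still hold the NIL DOG6 SL array numbered 1. The gene DOG1 (AT5G45830), which lies on chromosome 5, spanned 5.76 to 9.39 over the arrays.

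The members were mostly weakly measured genes. The median member had a mean level of 2.84, against 4.29 over all probe sets, and 570 members (71.9%) lay below that overall median. The gene table of the assembly TAIR10.1 listed 753 of the members and gave 195 of them a symbol. It classed 734 as protein coding, 6 as ncRNA, 4 as lncRNA and 3 as snoRNA, while 40 members were not listed in it. The values of 4 members (AT3G32990, AT3G33000, AT3G33002 and AT3G33004) were identical to those of a different probe set throughout and cannot be told apart from it.

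Levels in NIL DOG6 were set against the mean of NILs DOG1 and DOG3, averaged over the 5 conditions. Of the 793 members, 203 (25.6%) had an adjusted p under 0.05 in limma, where 8.52% of all probe sets did. They were split nearly evenly, with 100 higher in NIL DOG6 (4% of all probe sets) and 103 lower (4.52%). Because this contrast chose the segment, these counts describe the choice and nothing is read from them. The difference was at least 2-fold for 29 members, against 0.331% of all probe sets. NIL DOG6 was higher for 14 of these (0.183% of all) and lower for 15 (0.147%). At least 4-fold differences were found for 8 members (0.0862% of all) and at least 8-fold for 4 (0.0252%). The median size of the difference was 0.08 log2 units in the segment and 0.06 over all probe sets, and a small number of members differed a lot. The median size depended on level. Among the 223 members at or above the median level of all probe sets it was 0.22, and 59.6% were called, against 13.8% of brighter probe sets. Among the 570 members below that level it was 0.06, and 12.3% were called. The members next to the 2-fold limit were AFP3 (AT3G29575), which encodes a protein binding the abscisic acid factor ABI5, with 0.99, and AT3G28810 with 1.06.

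**Figure D1:**
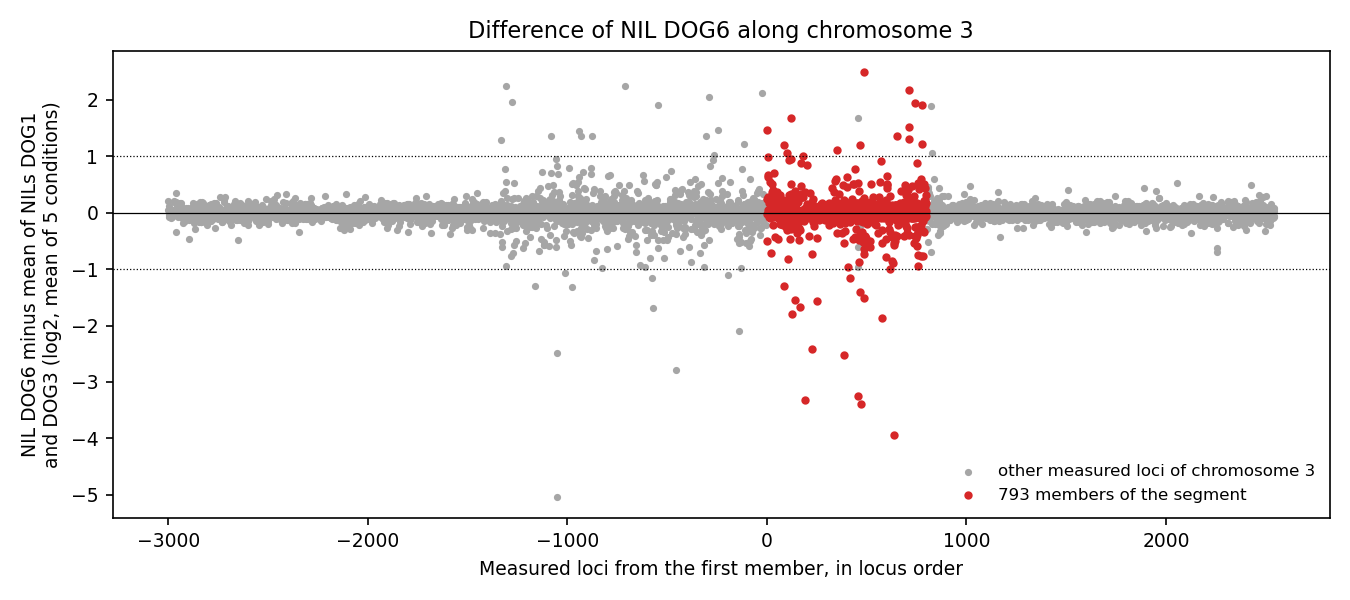
Difference of NIL DOG6 from the mean of NILs DOG1 and DOG3 (y axis, log2, mean of the 5 conditions) for the 5545 measured loci of chromosome 3, numbered from the first member of the segment in locus order (x axis). The 793 members are red, the other loci of the chromosome grey, and the dotted lines mark a 2-fold difference; large differences of both signs run through the segment and on into the loci before it.

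The strongest lower signals in NIL DOG6 came from EXLA1 (AT3G45970), which encodes an expansin-like protein of the cell wall. Its level in NIL DOG6 had a lowest, median and highest value of 4.02, 5.30 and 6.40 over 15 arrays. In NIL DOG1 these values were 8.62, 9.26 and 10.11 (n = 15), and in NIL DOG3 8.46, 9.02 and 10.14 (n = 14). All NIL DOG6 arrays lay below all others, and the mean difference was -3.95 ± 0.09 (SE), or 15.4-fold. At 20C the arrays of NIL DOG6 read 5.30, 4.02 and 5.70, those of NIL DOG1 9.26, 9.04 and 8.99, and those of NIL DOG3 8.46, 8.76 and 8.69. EXLA3 (AT3G45960), its neighbour and family member, was near the lowest levels on the array (mean 2.18 in NIL DOG6 and 2.20 in the others) with a difference of -0.02 ± 0.04. EXPA5 (AT3G29030), an expansin gene, differed by -0.16 ± 0.10. In the list of these 3 expansin genes, 0 were called higher and 1 lower, with a median difference of -0.16 against -0.0019 over all probe sets. Of all members 12.6% were called higher and 13% lower, beside 4% and 4.52% of all probe sets. This contrast chose the segment, so nothing is read from the count or the median of the list.

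Histone deacetylase genes gave large differences of both signs. Such enzymes remove acetyl groups from histones and so affect chromatin. The level of hda17 (AT3G44490) was 2.71, 3.72 and 6.09 (lowest, median, highest) in NIL DOG6, against 6.93, 7.38 and 7.67 in NIL DOG1 and 6.77, 7.25 and 7.74 in NIL DOG3. The groups did not overlap, although the range within NIL DOG6 was wide, and the difference was -3.39 ± 0.19. The level of hda10 (AT3G44660) went the other way, with 4.96, 6.10 and 6.84 in NIL DOG6, 2.35, 3.58 and 4.49 in NIL DOG1 and 2.59, 3.65 and 5.0 in NIL DOG3. Its difference was 2.49 ± 0.17, and the groups overlapped only between the lowest NIL DOG6 array and the highest NIL DOG3 array. HDA9 (AT3G44680), the longer-studied member of this group and a known regulator of seed and flowering genes, differed by -0.73 ± 0.07. The 3 genes are close copies, so their probe sets may share signal, and their separate levels are uncertain.

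Other members with lower values in NIL DOG6 were also well separated. AT3G29644, a lncRNA, lay between 1.96 and 3.31 in NIL DOG6 and between 5.47 and 6.40 elsewhere (-3.32 ± 0.08). AT3G44280 lay between 3.16 and 4.73 in NIL DOG6 and between 6.67 and 7.32 elsewhere (-3.25 ± 0.10). Both thus had an empty interval of more than 1 log2 unit between the lines. AT3G43580 differed by -2.52 ± 0.07 and AT3G29310 by -1.67 ± 0.05, each without overlap. CYP702A8 (AT3G30290), a cytochrome P450 gene, differed by -2.41 ± 0.12, but its range in NIL DOG6 (2.56 to 3.42) met that of NIL DOG3 (3.14 to 6.00). The remaining differences among the 12 largest were those of AT3G45440 (LecRK-I.6, a lectin receptor kinase gene, -1.87 ± 0.06), AT3G29000 (-1.80 ± 0.14), AT3G30778 (-1.56 ± 0.09), AT3G29075 (-1.55 ± 0.07) and AT3G44630 (-1.51 ± 0.11). DCL3 (AT3G43920), a Dicer gene of small RNA production, was at -1.16 ± 0.09, again with no overlap.

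Among members with higher values in NIL DOG6, PHT4;3 (AT3G46980), of a phosphate transporter family, stood out by its separation. Its level was 4.93, 5.77 and 6.01 (lowest, median, highest) in NIL DOG6, 3.19, 3.73 and 4.06 in NIL DOG1 and 3.46, 3.71 and 3.92 in NIL DOG3. NIL DOG6 was above the others on every array, by 1.95 ± 0.07 on average. The snoRNA loci AT3G47348 and AT3G47347 are neighbours, and both were higher, by 1.91 ± 0.06 and 1.21 ± 0.05, with no overlap between lines. AT3G47348 spanned 7.98 to 8.89 in NIL DOG6 and 6.05 to 7.07 elsewhere. The third snoRNA of the segment, AT3G27865, was 1.47 ± 0.09 higher with overlapping arrays. All 3 snoRNA members were past 2-fold, as were 24 of 734 protein coding members and 0.331% of all probe sets. This contrast chose the segment and 2 of the 3 loci are neighbours, so nothing is read from these counts. Small nucleolar RNAs guide chemical modifications of other RNAs.

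A run of neighbouring loci beside UGT76E11 was higher in NIL DOG6. The levels of AT3G46680, AT3G46690 and AT3G46700, which follow each other in locus order, were higher in NIL DOG6 by 1.52 ± 0.12, 1.31 ± 0.13 and 2.18 ± 0.10. AT3G46700 had 3.03, 4.74 and 6.23 (lowest, median, highest) in NIL DOG6, against 1.75, 2.63 and 3.15 in NIL DOG1 and 2.0, 2.41 and 2.60 in NIL DOG3. Its arrays overlapped between NIL DOG6 and NIL DOG1. AT3G46690 reached 4.92 in NIL DOG6 but had a lowest value of 2.30 there, within the range of the other lines. In the contrast that chose the segment, 12.6% of all members were called higher and 13% lower, beside 4% and 4.52% of all probe sets. Nothing is therefore read from the count for this list. Of the 7 listed loci from AT3G46650 to AT3G46720, 3 were called higher and 1 lower, with a median difference of 0.10. The lower one was UGT76E11 (AT3G46670), a glucosyltransferase gene, at -0.39 ± 0.04, and its neighbour UGT76E12 (AT3G46660) was at -0.03 ± 0.05. The other large differences with higher values were those of AT3G28940 (1.68 ± 0.17), AT3G46110 (1.36 ± 0.07), AT3G28660 (1.21 ± 0.08) and AT3G44440 (1.20 ± 0.14).

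**Figure D2:**
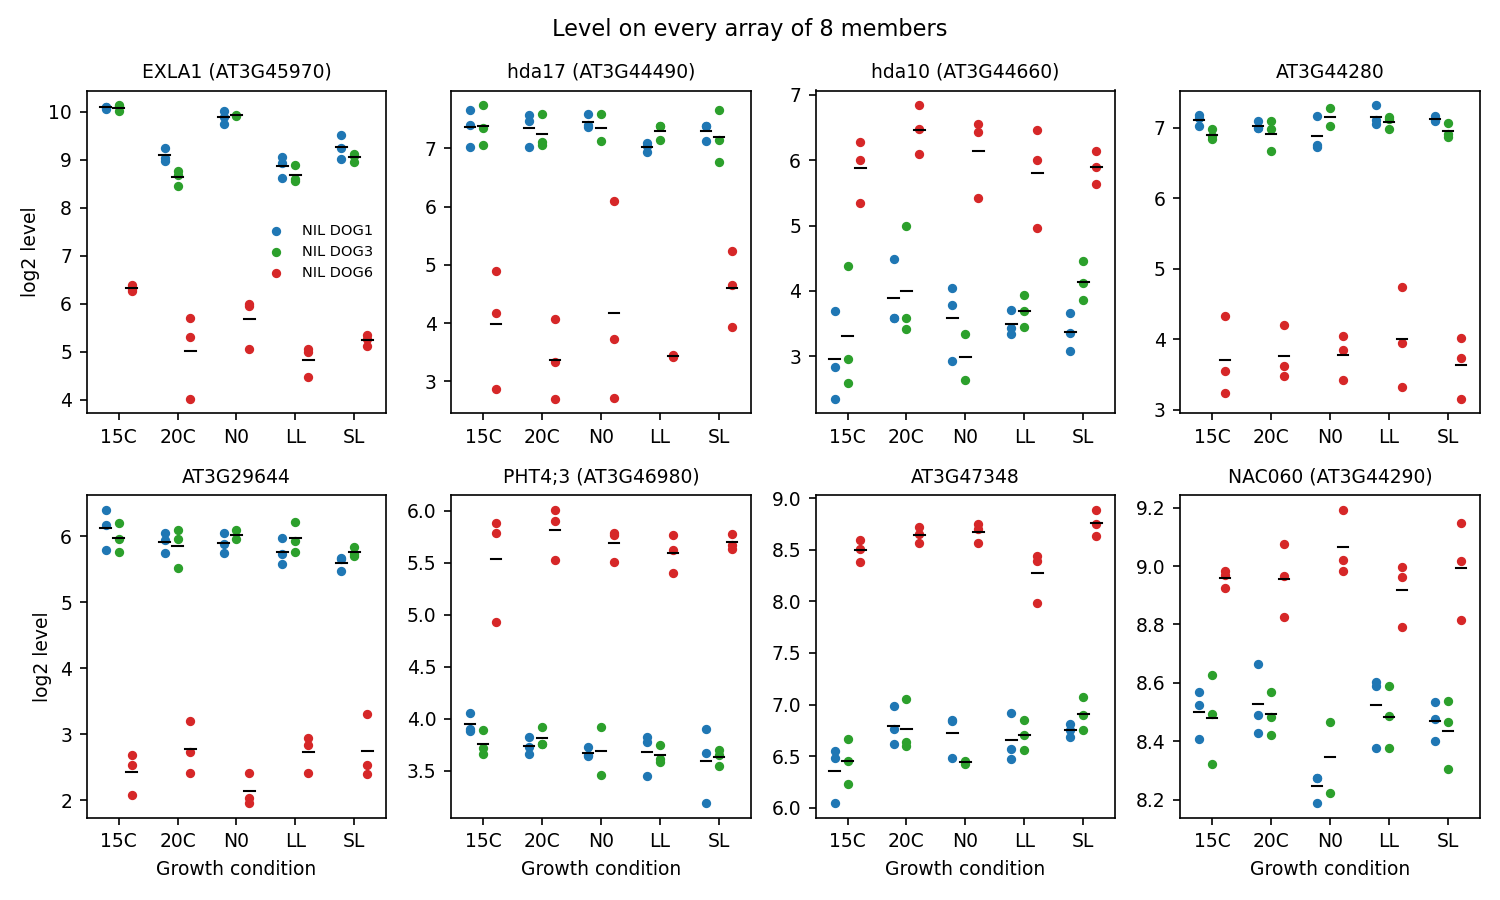
Deposited log2 level (y axis) of 8 members on every array, by growth condition (x axis) and line, with the mean of each group as a bar. EXLA1, hda17, AT3G44280 and AT3G29644 are lower and hda10, PHT4;3, AT3G47348 and NAC060 higher in NIL DOG6 in all 5 conditions, and each panel has its own scale.

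NAC060 (AT3G44290) had a small difference with little spread. Its level was 8.79, 8.98 and 9.19 (lowest, median, highest) in NIL DOG6, 8.19, 8.48 and 8.66 in NIL DOG1 and 8.22, 8.48 and 8.63 in NIL DOG3. All NIL DOG6 arrays were above all others, by 0.53 ± 0.04 or 1.44-fold. It was 1 of 12 members that did not overlap between the lines while differing less than 2-fold. Another was PHOT1 (AT3G45780), the blue light receptor phototropin 1, at -0.99 ± 0.03, with 7.41 to 8.32 in NIL DOG6 and 8.52 to 9.05 elsewhere. CAM7 (AT3G43810), a calmodulin gene, differed by -0.96 ± 0.07, and NAXT1 (AT3G45650), a nitrate excretion transporter gene, by 0.52 ± 0.04. In all, 30 members had NIL DOG6 arrays that did not overlap the others, where 0.226% of all probe sets did. Of these 14 lay above (0.115% of all) and 16 below (0.111% of all), and 18 were also past 2-fold. On the whole array 63 probe sets did not overlap, and 58 of them were on chromosome 3.

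The signs held across conditions for many members. For 172 members the difference of NIL DOG6 had the same sign against both lines in all 10 comparisons within conditions, where 4.32% of all probe sets did. In 16 members it was also at least 2-fold in each of the 10 (0.137% of all), higher for 6 (0.0791%) and lower for 10 (0.0575%). At 15C, 35 members differed at least 2-fold from NIL DOG1 (0.686% of all probe sets) and 37 from NIL DOG3 (0.801%). At 20C the counts were 33 (0.597%) and 36 (0.643%), and under N0 40 (0.78%) and 41 (0.719%). Under LL they were 27 (0.676%) and 28 (0.579%), and under SL 33 (0.913%) and 37 (0.852%). Single members varied more. The difference of EXLA1 stayed between -4.26 and -3.63 and that of AT3G44280 between -3.49 and -3.09. That of CYP702A8 went from -3.87 against NIL DOG1 at 15C to -0.90 against NIL DOG3 under N0. AT3G46690 went from 1.79 to 0.22, its smallest value being that under LL against NIL DOG1. NAC060 stayed between 0.39 and 0.82, with both of its largest differences under N0.

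**Figure D3:**
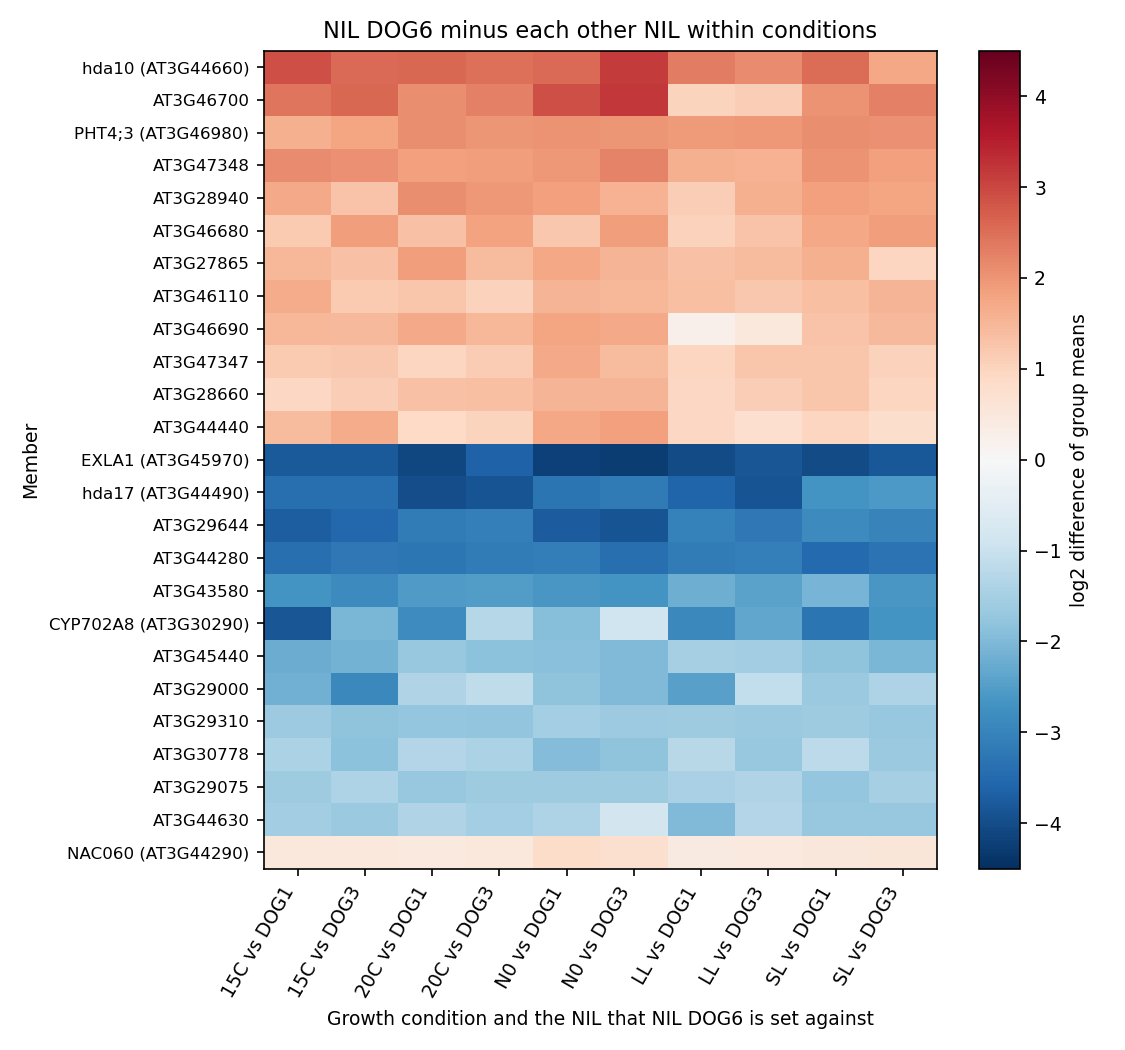
Difference of group means (colour, log2) between NIL DOG6 and each other line within each condition (columns) for 25 members (rows), the 12 with the highest and the 12 with the lowest mean difference and NAC060. Each row keeps its colour across the 10 columns, EXLA1 between -4.26 and -3.63 and CYP702A8 between -3.87 and -0.90.

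Along the segment, large differences came singly or in small runs. In runs of 50 members in locus order, the share with an adjusted p under 0.05 was highest from AT3G44235 to AT3G44760, with 22 of 50. This run holds NAC060, hda17 and hda10, and 2 of its members were at least 2-fold higher and 4 at least 2-fold lower. The run from AT3G46630 to AT3G47080 had 21 of 50, with 4 at least 2-fold higher and 0 lower. The run from AT3G30805 to AT3G33293 had 1 of 50, and the run before it, from AT3G29763 to AT3G30778, had 6 of 50.

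The rule's limits were not the limits of the difference. At the lower end, the last loci outside were RPL12-A (AT3G27830, 0.20 ± 0.08), AT3G27831 (0.12 ± 0.12) and AT3G27835 (0.17 ± 0.17). The first members were RPL12-B (AT3G27840, -0.02 ± 0.06), RPL12-C (AT3G27850, 0.24 ± 0.06) and AT3G27860 (-0.51 ± 0.07). RPL12 genes encode a plastid ribosomal protein. The last members were AT3G47540 (0.18 ± 0.07), AT3G47543 (0.03 ± 0.04) and AT3G47550 (-0.06 ± 0.04), followed outside by AT3G47560 (0.17 ± 0.10), AT3G47570 (0.40 ± 0.06) and AT3G47580 (0.10 ± 0.08). Between these edge loci no step was visible at either end. Of the 150 loci before the segment 28% were called and 5 did not overlap between the lines. Of the 150 loci after it 15.3% were called and 0 did not overlap. Inside, 25.6% of the members were called and 30 did not overlap, beside 8.52% and 0.226% of all probe sets. From AT3G15840 to the segment, 355 of 1350 loci (26.3%) were called, beside 25.6% of the 793 members. Past 2-fold were 25 of these loci (1.85%) and 29 of the members (3.66%). The median level was 4.30 in these loci and 2.84 in the members, so the shares called compare sets of unlike level. From the segment to AT3G48420, 21 of 100 loci (21%) were called. Before AT3G15840 the share was 4.18% of 1650 loci, and after AT3G48420 it was 4.8% of 1645, with 0 past 2-fold in either stretch. On chromosomes 1, 2, 4 and 5 it was 7.44%, 4.86%, 5.14% and 10.3%. AT3G15840 and AT3G48420 are edges of runs of 50 loci at which the share called dropped. The shares on either side of them therefore describe the choice of these limits. By this description the members are part of a longer stretch of chromosome 3 that was distinct in NIL DOG6.

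**Figure D4:**
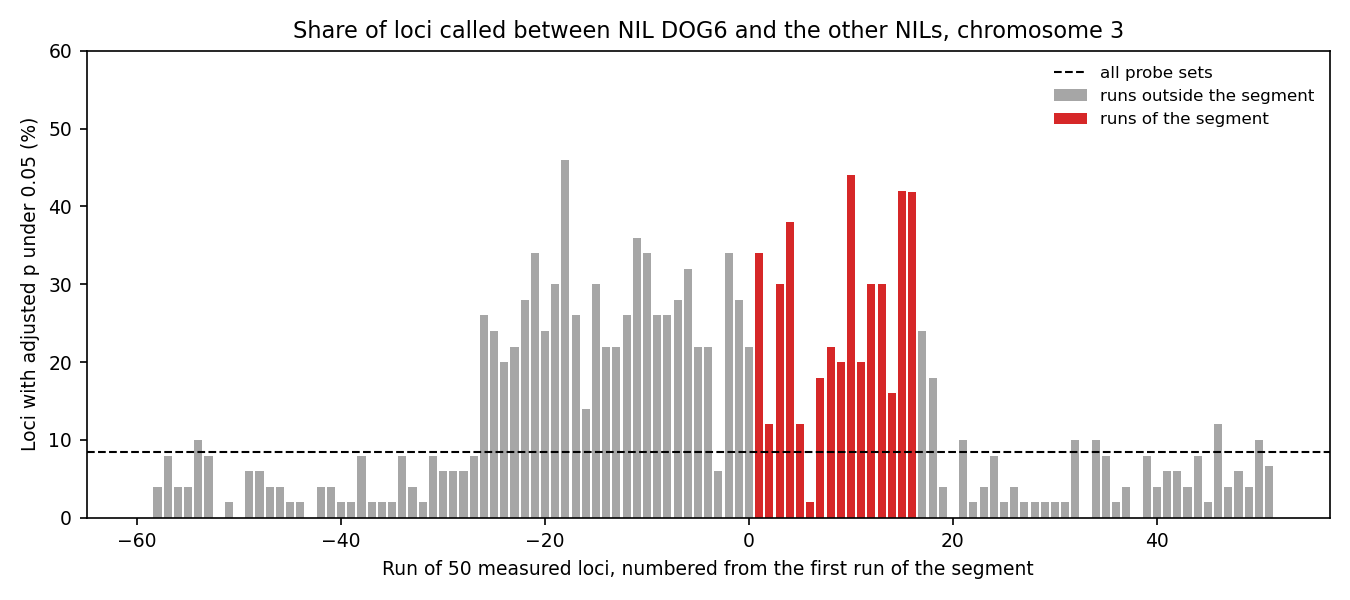
Share of loci with an adjusted p under 0.05 (y axis, %) between NIL DOG6 and the other lines in runs of 50 measured loci along chromosome 3 (x axis, runs numbered from the first run of the segment). Runs of the segment are red and other runs grey, and the dashed line is the 8.52% of all probe sets; the raised shares begin before the segment and end shortly after it.

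Members of a gene list differed among themselves. The counts below rest on the contrast that chose the segment, in which 12.6% of all members were called higher and 13% lower, beside 4% and 4.52% of all probe sets, and nothing is read from them. Of 7 listed loci that include the pathogen recognition genes RPP1 (AT3G44480) and RPP13 (AT3G46530), 0 were higher and 3 lower, with a median difference of -0.15. The 3 were AT3G44630, AT3G44670 (-0.65 ± 0.11) and AT3G44400 (-0.39 ± 0.07), while RPP1 was at -0.15 ± 0.11 and RPP13 at 0.02 ± 0.05. Of the 6 lectin receptor kinase genes in a row, LecRK-I.1 to LecRK-I.6, 0 were higher and 2 lower (median -0.02), AT3G45440 and AT3G45410 (-0.31 ± 0.05). Of the 7 listed loci from NAXT1 to AT3G45720, 2 were higher and 0 lower (median 0.07), NAXT1 and AT3G45660 (0.49 ± 0.08). The 6 listed loci from MEE39 (AT3G46330) to AT3G46420, the 7 from AT3G28510 to AT3G28610 and the fatty acid reductase genes FAR4, FAR5 and FAR8 had 0 called in either direction, with medians of 0.04, -0.05 and 0.20. Many of these loci had levels near the low end of the array in both groups. Among 4 listed loci from AT3G29110 to AT3G32030, AT3G29190 was lower (-0.36 ± 0.10; median -0.05). Among 4 that include the acyltransferase genes AT5MAT and PMAT2, PMAT2 (AT3G29670), which adds malonyl groups to phenolic glucosides, was higher (0.36 ± 0.05; median 0.03).

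Of 16 listed regulators and enzymes of central metabolism, 4 were higher and 5 lower in NIL DOG6, with a median of -0.02, where 25.6% of the members and 8.52% of all probe sets were called. Higher besides NAC060 were ACD1 (AT3G44880), a chlorophyll breakdown enzyme gene (0.50 ± 0.06), the DOF factor gene CDF3 (AT3G47500, 0.44 ± 0.06) and the stress kinase gene MPK3 (AT3G45640, 0.43 ± 0.04). Lower besides PHOT1 were MYB30 (AT3G28910), a transcription factor gene (-0.46 ± 0.05), the glucan phosphorylase gene PHS2 (AT3G46970, -0.26 ± 0.06), the asparagine synthase gene ASN1 (AT3G47340, -0.23 ± 0.04) and HDA3 (AT3G44750, -0.21 ± 0.04). Strongly measured members without a called difference were ERD5 (AT3G30775), the proline dehydrogenase gene (-0.09 ± 0.03), J3 (AT3G44110), a DnaJ chaperone gene (-0.02 ± 0.04), and KIN11 (AT3G29160), an energy-sensing kinase gene (-0.05 ± 0.04).

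Between the other lines CYP702A8 and AT3G46320 gave the clearest differences in the segment. NIL DOG3 was set against NIL DOG1, which is not the contrast that chose the segment though it uses arrays of it. Of the 793 members 30 (3.78%) were called, against 11.1% of all probe sets, 19 higher in NIL DOG3 (6.07% of all) and 11 lower (5.01%). Among members at or above the median level the share was 8.97%, against 18.3% of brighter probe sets. CYP702A8 was 1 member past 2-fold (0.568% of all probe sets). Its level was 4.47, 5.72 and 7.35 (lowest, median, highest) in NIL DOG1 and 3.14, 5.09 and 6.00 in NIL DOG3, and the difference was -1.10 ± 0.14 (adjusted p = 2.52e-07). It was below NIL DOG1 in NIL DOG3, and lower again in NIL DOG6.

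AT3G46320 was lower in NIL DOG1 than in NIL DOG3, with overlapping arrays. It had 8.77, 9.06 and 9.40 in NIL DOG1, 9.28, 9.70 and 10.05 in NIL DOG3 and 9.51, 9.80 and 9.91 in NIL DOG6. NIL DOG3 was 0.59 ± 0.05 above NIL DOG1 (adjusted p = 3.97e-11). MYB30 was 0.47 ± 0.06 higher in NIL DOG3 (adjusted p = 4.85e-07), AT3G42628 0.64 ± 0.14 (adjusted p = 0.0012) and the lncRNA AT3G27990 0.42 ± 0.14 (adjusted p = 0.0429). The call of AT3G27990 was lost in 16 of the fits with 1 array left out, and that of AT3G46680 in 8. Lower in NIL DOG3 were ACD1 (-0.42 ± 0.07, adjusted p = 2.05e-05), AT3G47100 (-0.43 ± 0.09, adjusted p = 0.000565) and AT3G46680 (-0.45 ± 0.14, adjusted p = 0.0297). The count of 30 was 19 without the NIL DOG3 20C array numbered 2.

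Growth at 15C raised LCR30, EXLA1 and PMAT2 and lowered AT3G42628 and AT3G45310. Against 20C, with the 3 lines averaged (9 arrays against 9), 116 members (14.6%) were called and 25.3% of all probe sets. Of the members 64 rose (12.5% of all) and 52 fell (12.8%). Among members at or above the median level 39.5% were called, against 42.5% of brighter probe sets. LCR30 (AT3G43505), of the cysteine-rich small protein family, rose by 1.37 ± 0.17 (adjusted p = 7.59e-08), from 4.36, 4.83 and 5.43 (lowest, median, highest) at 20C to 5.79, 6.29 and 7.04 at 15C. The groups did not overlap. EXLA1 rose by 1.26 ± 0.14 (adjusted p = 1.16e-08), by 1.00 in NIL DOG1, 1.45 in NIL DOG3 and 1.32 in NIL DOG6. AT3G43430 rose by 1.12 ± 0.11 (adjusted p = 1.14e-09), PMAT2 by 0.94 ± 0.08 (adjusted p = 2.44e-11) and FAR5 (AT3G44550), whose enzyme makes fatty alcohols of suberin, by 0.97 ± 0.23 (adjusted p = 0.00135).

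Falls at 15C were led by AT3G42628, which went from 5.11, 5.97 and 6.32 at 20C to 3.87, 4.56 and 5.50 (-1.19 ± 0.17, adjusted p = 2.04e-06). AT3G45310 fell by 0.95 (SE 0.16, adjusted p = 1.33e-05). The hda10 level fell by 0.74 (SE 0.25, adjusted p = 0.0249), a call that was lost in a fit to the 15C and 20C arrays alone (adjusted p = 0.0649). Among the listed regulators 3 rose (CDF3, ERD5 and MPK3) and 4 fell (MYB30, HDA3, J3 and PHS2), with a median of 0.01 against 0.0048 over all probe sets. The 7 listed loci around UGT76E11 had 2 lower, UGT76E12 (-0.63, adjusted p = 3.06e-08) and UGT76E11 (-0.23, adjusted p = 0.00624), and the expansins, the reductases and the list with PMAT2 had 1 higher each. In the other 6 lists 0 were called. The direction was the same in all 3 lines for 111 of the 116 members. These were called on the mean of the 3 lines, which partly fixes the agreement, so nothing is read from it. Of the 9 pollen markers 2 were called lower at 15C, with means of 4.87 to 5.65 against 5.22 to 6.41 at 20C, and their part in these results was not tested.

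Low nitrate raised EXLA1, PMAT2 and LCR30 again, with the 3 lines averaged. Against the same 20C arrays 49 members (6.18%) were called under N0 and 11.9% of all probe sets, 26 higher (5.86% of all) and 23 lower (6.07%). Among members at or above the median level the share was 17%, against 21.2% of brighter probe sets. EXLA1 rose by 0.92 ± 0.15 (adjusted p = 2.1e-05), with 9.75 to 10.01 on NIL DOG1 arrays, 9.92 and 9.94 on those of NIL DOG3 and 5.06 to 5.99 on those of NIL DOG6. PMAT2 rose by 0.69 ± 0.08 (adjusted p = 1.07e-07), AT3G43110 by 0.64 ± 0.10 (adjusted p = 3.76e-05) and LCR30 by 0.61 ± 0.17 (adjusted p = 0.0157). Within NILs DOG1, DOG3 and DOG6 the rise of EXLA1 was 0.79, 1.29 and 0.66, called in NIL DOG3 alone. That of LCR30 was 0.29, 0.46 and 1.08, called in NIL DOG6 alone, and that of PMAT2 was called in each line. A call in a single line does not show that the lines differed. The test of whether the N0 response differed in NIL DOG6, given below, called 0 members. Falls included those of AT3G42628 (-0.98 ± 0.18, adjusted p = 0.000211), AT3G45310 (-0.77 ± 0.16, adjusted p = 0.00103) and AT3G46500 (-0.66 ± 0.17, adjusted p = 0.00814). The direction was shared by the 3 lines in 48 of 49, again members called on the mean of these lines, so nothing is read from it.

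EXLA1, LCR30, PMAT2, AT3G42628 and AT3G45310 were thus among the members named for both 15C and N0, and 38 members were called in both. Of all probe sets 25.3% were called for 15C and 11.9% for N0, and the share called in both was not computed. The comparisons share their 20C arrays, so the overlap is given as a count only and nothing is read from it. Under N0 the regulator list had 1 higher, ERD5, and 2 lower, MYB30 and HDA3 (median 0.0054 against 0.0082 over all probe sets). The loci around UGT76E11 had 1 higher, AT3G46700 (0.51, adjusted p = 0.0187), and 2 lower, UGT76E12 and UGT76E11. The expansins and the list with PMAT2 had 1 higher each and the other 7 lists 0 called.

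Low light gave 24 called members (3.03%) against SL, where 6.36% of all probe sets were called. Of them 9 rose (2.73% of all) and 15 fell (3.63%). At or above the median level the share was 7.17%, against 10.3% of brighter probe sets. AT3G45310, which had fallen at 15C and under N0, rose by 1.07 ± 0.16 (adjusted p = 5.27e-05), from 4.11, 4.76 and 5.42 (lowest, median, highest) under SL to 5.30, 5.77 and 6.42 under LL. Only the top of the SL range met the bottom of the LL range. AT3G44050 rose by 0.61 ± 0.12 (adjusted p = 0.0011), AIG2 (AT3G28930), named for its response to a bacterial effector, by 0.60 ± 0.16 (adjusted p = 0.0176) and ADT4 (AT3G44720), of phenylalanine synthesis, by 0.37 ± 0.09 (adjusted p = 0.00689).

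The largest fall under LL was that of AT3G28750, by 1.98 (SE 0.35, adjusted p = 0.000523). Its SL arrays numbered 2 read 9.36, 8.66 and 8.46 in NILs DOG1, DOG3 and DOG6, while its LL arrays spanned 4.24 to 6.46. AT3G43120 changed by -1.19 ± 0.29 (adjusted p = 0.00932), AT3G28980 by -1.18 ± 0.32 (adjusted p = 0.0216) and GH9A4 (AT3G43860), a glycosyl hydrolase gene, by -1.05 ± 0.27 (adjusted p = 0.0155). Of the 9 pollen markers 8 were called lower under LL and 0 higher, and their part in these falls was not tested. Without the 3 SL arrays numbered 2 the members called were 12, and the difference of AT3G28750 was -1.34 ± 0.30 (adjusted p = 0.00958), or 2.53-fold. AT3G45310 was then at 0.97 ± 0.18 (adjusted p = 0.00171) and AT3G44050 at 0.70 ± 0.13 (adjusted p = 0.00256). The other 5 named members were no longer called. These were AIG2 (0.52, adjusted p = 0.114), ADT4 (0.26, adjusted p = 0.136), AT3G43120 (-0.53, adjusted p = 0.117), AT3G28980 (-0.80, adjusted p = 0.229) and GH9A4 (-0.59, adjusted p = 0.204). With the mean of the lines for each condition and number as 1 unit, 8 members were called for LL. Among the lists, the regulators had 1 higher, PHS2 (0.35), and 2 lower, PHOT1 (-0.24) and ERD5 (-0.16), the loci around UGT76E11 1 lower, AT3G46700 (-0.61), and the list with PMAT2 1 lower, PMAT2 (-0.37), with 0 called in the other 8. Without the 3 arrays these values were 0.39 for PHS2 (adjusted p = 0.0229), -0.27 for PHOT1 (adjusted p = 0.00427), -0.16 for ERD5 (adjusted p = 0.115), -0.54 for AT3G46700 (adjusted p = 0.0411) and -0.32 for PMAT2 (adjusted p = 0.0355).

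**Figure D5:**
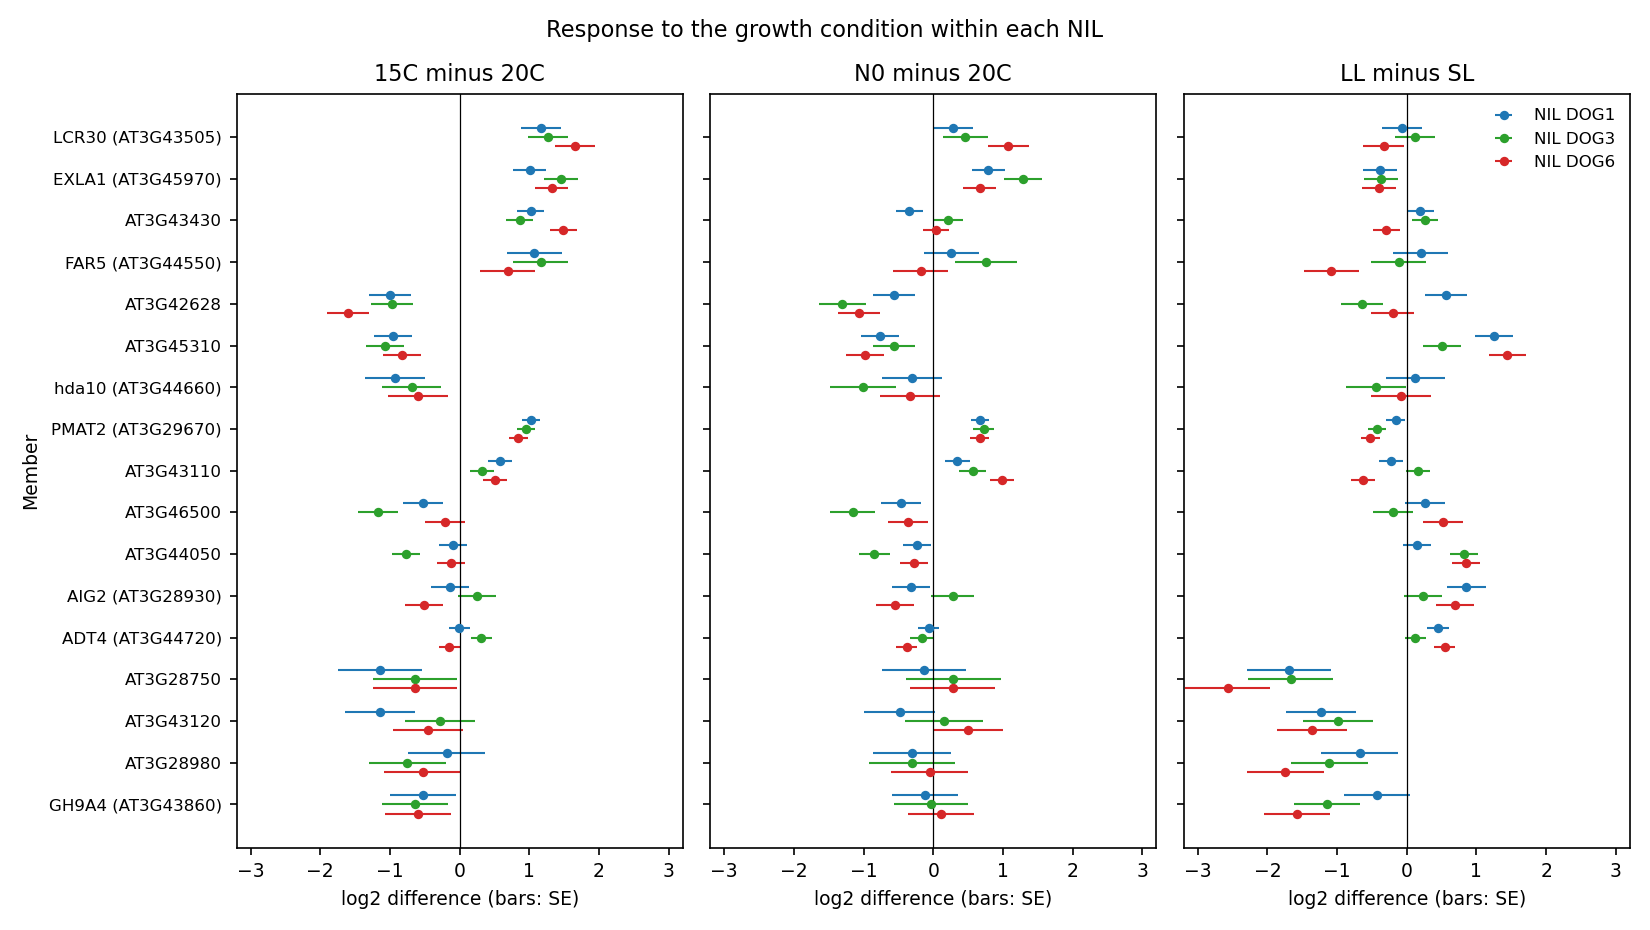
Change of 17 members with the growth condition (x axis, log2 difference with its SE as a bar) within each line (colours), for 15C minus 20C, N0 minus 20C and LL minus SL. EXLA1 rose at 15C by 1.00 to 1.45 in the lines, and AT3G28750 has the widest error bar in each line and comparison.

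Whether the response of a member to a condition differed between NIL DOG6 and the other lines was tested as an interaction. This measure was not used to choose the segment. For 15C, N0 and LL, limma called 0 members each, where 0.00359%, 0% and 0.00359% of all probe sets were called. At an unadjusted p under 0.05 there were 50, 49 and 51 members (6.31%, 6.18% and 6.43%), near the 6%, 5.93% and 5.86% of all probe sets. The median SE of a member's interaction was 0.21, 0.22 and 0.21 log2 units, which limits the differences of response that these arrays can show. EXLA1, with its large difference in level, had interactions of 0.09 ± 0.30 for 15C, -0.38 ± 0.30 for N0 and -0.03 ± 0.30 for LL. Among the 25 members of the heat map the smallest adjusted p was 0.596, 0.597 and 0.564.

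The members nearest to a call were AT3G45260 for 15C (0.56 ± 0.14, adjusted p = 0.405), UMAMIT43-psi (AT3G28060), a transporter pseudogene, for N0 (0.89 ± 0.17, adjusted p = 0.197) and AT3G45410 (LecRK-I.3) for LL (0.69 ± 0.17, adjusted p = 0.306). Without the 3 SL arrays numbered 2 the value of AT3G45410 was 0.62 ± 0.19 (adjusted p = 0.71), and 0 members were called. Leaving out single arrays gave calls. Without the NIL DOG6 N0 array numbered 1, UMAMIT43-psi (1.00, adjusted p = 0.0224) and AT3G42786 (-0.86, adjusted p = 0.0209) were called for N0. Without the NIL DOG6 SL array numbered 1, AT3G44370 (0.84, adjusted p = 0.0264) was called for LL.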

How the data were processed

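The authors deposited log2 values per probe set; the submitters' processing notes name RMA. RMA corrects background, normalizes arrays to the same distribution and summarises probes, so a change of total RNA would not be seen. The sources used here give no RMA version, array annotation or genome build. The labels call the samples total RNA, although the extraction protocol also describes polysome RNA. Array medians were 4.22 to 4.39, and the number of arrays limits the precision. Correlations over all probe sets were 0.987 to 0.994 within groups and 0.974 to 0.994 between groups.

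Group means of all 44 arrays in 15 groups were fitted with limma 3.58.1 (lmFit, eBayes) in R 4.3.3, with 29 residual degrees of freedom, a median residual SD of 0.199 and no filter on dim probe sets. All tests are two-sided, and calls rest on p-values adjusted over the 27827 probe sets by Benjamini-Hochberg, with 0.05 as the limit. Errors after ± are SE of the log2 difference. Whether replicates were separate growth rounds is not stated beyond the labels' randomized blocks, so p-values measure the spread between these samples. The fit was tested on simulated data. Gene names came from a TAIR10.1 gene table by locus, and order along the chromosome is that of locus numbers.

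The members and the 11 gene lists were chosen with earlier results of these data known. Named were the 12 members with the largest difference of NIL DOG6 in each direction among those with 1 sign throughout, NAC060, the members at both ends, the 4 largest called changes per direction and up to 3 members of each list, except 1 member that is not reported here. Members named beyond this, such as PHOT1, DCL3, CAM7, AFP3, HDA9 and those nearest to a call in the interactions, were chosen after their values were seen. Same-numbered arrays of a condition had correlations of -0.14 to 0.40 in their deviations from the group means (43 pairs, median 0.04, 12 over 0.1, beside 10 of 86 pairs with different numbers). The labels name a block design but do not say that the numbers mark its blocks. The arrays were therefore fitted as unpaired, although the pollen markers were high on all 3 SL arrays numbered 2. The alternatives were 2 kinds of replicate block, a filter on dim probe sets, median centring, a variance trend, fits to the arrays compared, each array left out, a fold limit and, chosen after seeing the data, leaving out the 3 SL arrays numbered 2, a random block for arrays of 1 condition and number (duplicateCorrelation) and a fit to the means of the lines for each condition and number.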

Additional observations from a re-analysis of the deposited data

How the results depend on the processing

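Counts of called members stayed within 1.5 times of those reported, except where named. For LL against SL the count fell from 24 to 12 when the fit held only the LL and SL arrays, and to 12 without the 3 SL arrays numbered 2 (chosen after seeing the data). Both fits hold fewer arrays. With the mean of the lines for each condition and number as 1 unit (3 a condition, also chosen after seeing the data) it was 8, where 2.71% of all probe sets were called, and the counts for 15C and N0 were 94 and 42. As a random block (correlation 0.0266) such arrays gave 111, 49 and 21 for 15C, N0 and LL. A limit of 2-fold in place of the call gave 29 members for NIL DOG6. Leaving out 1 array at a time gave 193 to 206 members for NIL DOG6 against the others, 19 to 33 for NIL DOG3 against NIL DOG1 (19 without the NIL DOG3 20C array numbered 2), 101 to 121 for 15C, 42 to 53 for N0 and 17 to 31 for LL. The interactions had 0 to 0, 0 to 2 and 0 to 1 called members for 15C, N0 and LL, and 14 to 17 members were at least 2-fold apart in all 10 comparisons. The replicate number as a block over all arrays gave 203, 27, 122, 52 and 28 members for these 5 comparisons and 0 for each interaction. As a block within conditions it gave 198 for NIL DOG6, 26 for NIL DOG3 against NIL DOG1 and 0 for each interaction. That the numbers pair the samples is not given by the labels. With a filter on dim probe sets 454 members remained, and the counts were 198, 30, 119, 47 and 30. Values of named members kept their direction under every alternative run. With all alternatives other than leaving out 1 array, 394 such values were kept and 18 lost the call. For the tested comparisons, kept means still called at the same limit. For the untested difference of NIL DOG6, pooled in this count, it means a shift below the residual SD of the member. The calls lost were those of AT3G27990 (5 alternatives) and AT3G46680 (1) between NILs DOG3 and DOG1, hda10 at 15C (1), and AIG2, ADT4, AT3G43120, AT3G28980 and GH9A4 under LL. With 1 array left out 2471 were kept in the same sense and 37 lost the call: AT3G27990 (16), AT3G46680 (8), hda10 (7), AT3G28980 (3), GH9A4 (2) and AIG2 (1). Low levels limit the dim members, whose changes are understated near the floor of the array.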
